A study of Mus musculus with 4 samples.

Results

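The Hox genes of MEFs, which are embryonic fibroblasts of the mouse, a connective tissue cell type, were examined on 4 arrays. Members were all genes with a symbol of Hox, a cluster letter from a to d and a number that were read by a probe set (the group of array probes assigned to a transcript) annotated to that gene alone. This gave 37 genes among 19938 genes on the array: 10 of the HoxA cluster, and 9 each of HoxB, HoxC and HoxD. Each was read by 1 probe set. Hoxb8 shared a probe set with Hoxb7 and was not used as a member.

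The groups were NFAT5/TonEBP knockout MEFs in hypertonic medium, NFAT5/TonEBP knockout MEFs in isotonic medium, wild-type MEFs in hypertonic medium and wild-type MEFs in isotonic medium. NFAT5, or TonEBP, is a transcription factor that activates genes for organic osmolytes when the surrounding medium becomes hypertonic. Cells were kept for 20 hours without synchronisation, and the hypertonic medium held added NaCl to 450 mosmol/kg. Per the design text, 4 samples of a condition were pooled for 1 array, so no spread between replicates was seen and no test between groups was possible. The sources used here do not give the knockout allele, the strain, the age of the embryos, the part of the embryo used or the number of embryos or isolates behind each genotype. With bulk RNA, fewer cells using a gene and less RNA per cell cannot be told apart.

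Hox genes encode homeodomain transcription factors that specify position along the body axis and the limbs. They lie in 4 clusters, within which genes with low paralogue numbers are used in anterior parts of the embryo and genes with high numbers in posterior and distal parts. Cultured fibroblasts are known to keep much of the Hox pattern of the site they came from. HoxA and HoxD genes with high numbers pattern the limbs, with Hoxa13 and Hoxd13 acting in the hand, foot and genital region, while HoxB and HoxC genes act mainly along the trunk.

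All signals below are log2 values as the authors deposited them, and all differences are on the log2 scale, so 1 is 2-fold. A signal was called dim when it lay below the median signal of its array, taken over probe sets with 1 gene. That dim limit was 5.41 for the knockout-labelled hypertonic, 5.38 for the knockout-labelled isotonic, 5.44 for the wild-type hypertonic and 5.43 for the wild-type isotonic array. Differences between 2 dim signals mix background with expression, and a gene counted as measured if it was above the limit on 1 or more of the arrays compared. For scale, differences read by 2 probe sets of the same gene varied with an SD of 0.15 to 0.21 per probe set, over 441 to 450 genes in the 4 comparisons between arrays. This covers the probe sets, not the cultures.

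The labels were checked first. Nfat5 read 8.24 and 8.03 on the knockout-labelled hypertonic and isotonic arrays, against 8.19 and 7.74 on the wild-type hypertonic and isotonic arrays. Its signal was not lower in the cells labelled as knockout; the position of the probes relative to any deletion is not known, so the cells are called knockout-labelled. Xist, the RNA that coats the inactive X chromosome of female cells, read 3.16 and 3.75 on the knockout-labelled hypertonic and isotonic arrays, against 9.31 and 8.99 on the wild-type ones. The Y-linked genes Eif2s3y, Kdm5d and Uty were dim on all 4 arrays. The genotypes therefore also differed in a gene tied to the sex of the cells, and genotype and isolate cannot be told apart here.

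Of 13 fibroblast markers, 9 were above the dim limit on all 4 arrays, and Dcn, Lum and Fap were dim on every array. Their mean signal was 7.25 and 7.59 on the knockout-labelled hypertonic and isotonic arrays, against 8.41 and 8.14 on the wild-type ones. Of the 10 measured, 7 were at least 2-fold lower in knockout-labelled cells in hypertonic medium, beside 6.43% of all measured genes. The median difference of the 10 was -1.56, and S100a4 (-3.81), Postn (-2.40) and Col1a1 (-1.64) were among the 7. Postn was dim on the knockout-labelled hypertonic array and so had to read lower there. In isotonic medium 2 were lower (S100a4 and Thy1), beside 1.28%, with a median of -0.35 over the 10. None was higher in either medium, beside 2.57% in hypertonic and 1.59% in isotonic medium. Of 6 neural and Schwann markers on the array, 4 were measured in each medium. In hypertonic medium 1 was at least 2-fold higher and 1 lower in knockout-labelled cells, beside 2.57% and 6.43% of all measured genes. In isotonic medium 1 was higher and 2 lower, beside 1.59% and 1.28%. Sox2 was higher in knockout-labelled cells, by 3.24 in hypertonic and 2.87 in isotonic medium. Its wild-type signals were dim, so it had to read higher there. Tubb3 was lower in knockout-labelled cells, with differences of -1.07 and -2.09. Nes had differences of -0.41 and -1.34. Ngfr, above the limit on all 4 arrays, had differences of 0.14 in hypertonic and -0.18 in isotonic medium. Sox10 and Gfap were dim on every array. Above the limit on at least 1 array were 2 of 5 chondrocyte markers (Sox9 and Col2a1), 3 of 7 keratinocyte markers (Krt8, Krt18 and Cdh1) and 1 of 5 haematopoietic markers. None of these differed 2-fold between the genotypes. Krt8 and Krt18 had differences of 0.47 and 0.71 in hypertonic and -0.20 and -0.18 in isotonic medium. Cdh1 had -0.84 in hypertonic and -0.71 in isotonic medium, from dim knockout-labelled signals. All 7 skeletal muscle, all 5 endothelial, all 4 melanocyte and the 3 osteoblast markers on the array were dim throughout. Correlations between arrays over all probe sets lay between 0.979 and 0.989, with the knockout-labelled hypertonic array having the lowest. What part these differences have in the Hox values was not tested.

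The clusters differed in how many of their genes were read above the dim limit. In HoxA, 7 of 10 genes were above it on all 4 arrays, namely Hoxa4, Hoxa5, Hoxa7, Hoxa9, Hoxa10, Hoxa11 and Hoxa13. Hoxa6 was above it on the hypertonic array of each genotype, and Hoxa2 and Hoxa3 were dim throughout. In HoxB no gene was above the limit on all arrays; Hoxb6 and Hoxb9 were above it on 3, and the other 7 were dim on all 4. All 9 HoxC genes were dim on every array, with signals from 3.07 to 4.63. In HoxD, Hoxd11 and Hoxd13 were above the limit on all arrays, Hoxd10 on both knockout-labelled arrays, Hoxd9 on the knockout-labelled hypertonic array alone, and the other 5 on none. By number, 1 of the 11 genes of paralogue groups 1 to 4 was above the limit on any array. The count was 4 of 10 in groups 5 to 8 and 9 of 16 in groups 9 to 13. Among all 19938 genes, 10542 were above it on any array, so groups 9 to 13 were near the general share. Together 9 of the 37 genes were above the limit on all arrays, 5 on some and 23 on none. Of all 19938 genes, 9217 were above it on all arrays and 9396 on none.

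**Figure D1:**
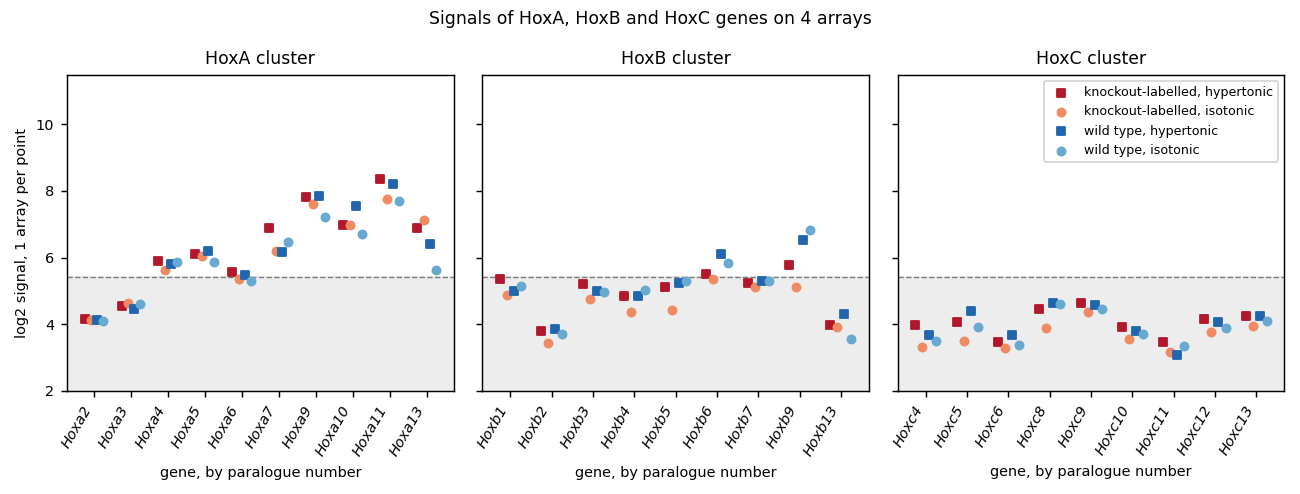
Log2 signal of each HoxA, HoxB and HoxC gene on the 4 arrays, 1 point per array, with genes in order of paralogue number. The dashed line is the mean dim limit of the arrays and the grey area lies below it; all 9 HoxC genes sit in the grey area, while 7 HoxA genes sit above it on every array.

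The genotype comparison asked whether the knockout-labelled and wild-type cells carried the same Hox pattern. They differed most in the HoxD cluster. There the 6 genes from Hoxd8 to Hoxd13 all read higher on both knockout-labelled arrays than on both wild-type arrays. Such non-overlap was seen for 24.4% of all genes above the dim limit on any array. Hoxd8 and Hoxd12 were dim on all 4 arrays and lie outside that set. Hoxd10 and Hoxd11 had the largest differences among the 37 Hox genes in each medium, and within a genotype each differed between media by at most 0.33. In the other direction, Hoxb9 and Hoxb6 read lower on both knockout-labelled arrays, as did 21.5% of all genes above the limit on any array. The dim genes Hoxb5, Hoxb7 and Hoxc8 also did, with gaps between the nearest arrays of -0.12, -0.06 and -0.14. Over all 37 Hox genes, dim ones included, both knockout-labelled arrays were above both wild-type arrays for 8 and below for 5.

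Hoxd10, which helps shape the hindlimb and the lumbar nervous system, read 8.58 in knockout-labelled and 5.24 in wild-type cells in hypertonic medium. In isotonic medium it read 8.25 in knockout-labelled and 4.93 in wild-type cells. The differences were 3.33 and 3.32 in hypertonic and isotonic medium. Both wild-type signals were dim, so the size is better given as a bound: against the dim limit of the wild-type arrays, Hoxd10 was at least 8.79-fold higher in hypertonic and at least 7.05-fold higher in isotonic medium. The arrays of the genotypes did not overlap.

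Hoxd11, which acts in the forearm and the sacral spine, read 8.39 in knockout-labelled and 5.77 in wild-type cells in hypertonic medium. In isotonic medium it read 8.29 in knockout-labelled and 5.70 in wild-type cells. All 4 signals were above the dim limit, though the wild-type ones were close to it (5.44 in hypertonic and 5.43 in isotonic medium). The fold differences were 6.16 in hypertonic and 6.02 in isotonic medium. Hoxd11 thus gave the largest difference among the Hox genes that were above the limit in both genotypes.

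Hoxd13, needed for digits and the genital region, read 9.74 in knockout-labelled and 8.62 in wild-type cells in hypertonic medium. In isotonic medium it read 9.72 in knockout-labelled and 8.36 in wild-type cells. It was well above the dim limit in both genotypes, and the differences were 1.11 and 1.36 in hypertonic and isotonic medium. The gap between the nearest arrays of the genotypes was 1.10.

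Hoxd9, Hoxd8 and Hoxd12 read higher in the knockout-labelled cells too, at signals near or below the dim limit. Hoxd9, a limb and trunk gene, read 5.77 in knockout-labelled and 4.63 in wild-type cells in hypertonic medium, and 5.24 in knockout-labelled and 4.40 in wild-type cells in isotonic medium. Hoxd8 read 3.94 in knockout-labelled and 2.83 in wild-type cells in hypertonic medium, and 4.55 in knockout-labelled and 2.83 in wild-type cells in isotonic medium. Hoxd12 read 4.84 in knockout-labelled and 3.96 in wild-type cells in hypertonic medium, and 4.94 in knockout-labelled and 4.09 in wild-type cells in isotonic medium. Only Hoxd9 had a signal above the dim limit, on 1 array, so the sizes for these 3 genes are poorly determined; the order of the genotypes was the same in both media for each.

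Hoxd4, Hoxd3 and Hoxd1, at the anterior end of the cluster, were dim on every array. Their differences ran from 0.25 to 0.38 in hypertonic and from -0.20 to 0.11 in isotonic medium. Over the 9 HoxD genes the median difference was 1.11 in hypertonic and 0.85 in isotonic medium, beside 0.04 and -0.04 over all 19938 genes, dim ones included.

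The genes next to the HoxD cluster did not share the difference. Evx2, a homeobox gene directly beside Hoxd13, read 6.82 in knockout-labelled and 6.61 in wild-type cells in hypertonic medium, and 6.43 in knockout-labelled and 6.52 in wild-type cells in isotonic medium. Mtx2, beyond Hoxd1 at the other end, read 7.99 in knockout-labelled and 7.84 in wild-type cells in hypertonic medium, and 8.16 in knockout-labelled and 8.23 in wild-type cells in isotonic medium. Over the 3 measured protein-coding genes on each side (Atp5g3, Lnpk and Evx2, and Mtx2, Nfe2l2 and Agps), differences ran from -0.27 to 0.21 in hypertonic and from -0.12 to 0.49 in isotonic medium, and none reached 2-fold. Within the cluster the noncoding genes Hoxd3os1, Haglr and Mir10b were dim on all arrays. This selection of neighbours follows the gene order of the RefSeq table and was made after the values were seen.

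**Figure D2:**
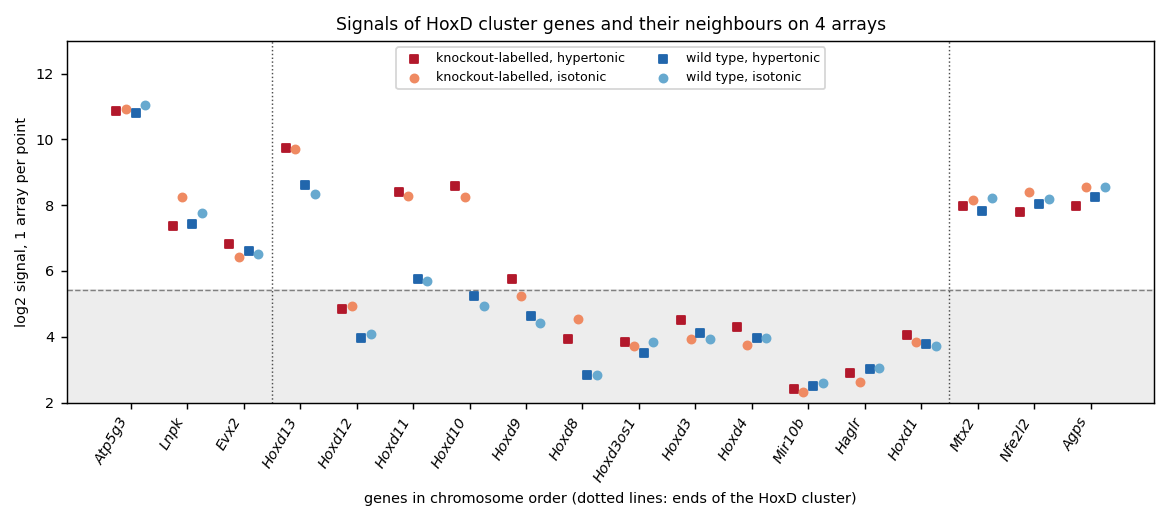
Log2 signal on the 4 arrays of the HoxD cluster genes and of 3 measured protein-coding neighbours on each side, in chromosome order and not to scale. Dotted lines mark the ends of the cluster and the grey area lies below the dim limit. Knockout-labelled points stand above wild-type points from Hoxd13 to Hoxd8, most at Hoxd10 and Hoxd11, and overlap with them at Evx2 and Mtx2.

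The sequences before the annotated starts of the 4 genes at least 2-fold higher in knockout-labelled cells in isotonic medium are shown because these genes read higher together. Each is the 250 bases upstream of the start in the RefSeq promoter table (GRCm38.p6), on the gene's strand, 5′ to 3′. For Hoxd11 the more upstream of its 2 listed starts was taken. Capitals mark TATAAA, the TATA box, CCAAT, the CCAAT box, GGGCGG, the GC box, and TGGAAA, the core with which the NFAT5 element begins, on either strand.
Hoxd13, chr2:74667975-74668224, + strand: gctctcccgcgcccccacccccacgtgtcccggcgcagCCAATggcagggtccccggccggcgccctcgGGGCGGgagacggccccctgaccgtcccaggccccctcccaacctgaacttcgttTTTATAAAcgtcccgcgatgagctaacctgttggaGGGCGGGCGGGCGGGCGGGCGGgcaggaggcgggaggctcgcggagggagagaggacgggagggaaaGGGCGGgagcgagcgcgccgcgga
Hoxd11, chr2:74679308-74679557, + strand: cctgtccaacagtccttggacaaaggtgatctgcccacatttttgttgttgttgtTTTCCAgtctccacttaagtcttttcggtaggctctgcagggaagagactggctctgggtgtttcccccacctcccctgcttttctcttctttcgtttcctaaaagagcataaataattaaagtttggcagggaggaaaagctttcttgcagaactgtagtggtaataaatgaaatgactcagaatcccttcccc
Hoxd10, chr2:74691641-74691890, + strand: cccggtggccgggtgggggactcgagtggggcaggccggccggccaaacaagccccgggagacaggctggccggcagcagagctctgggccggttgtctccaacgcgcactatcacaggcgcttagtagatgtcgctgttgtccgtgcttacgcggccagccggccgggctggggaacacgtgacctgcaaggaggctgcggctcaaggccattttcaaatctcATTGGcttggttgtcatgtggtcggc
Hoxa13, chr6:52260881-52261130, - strand: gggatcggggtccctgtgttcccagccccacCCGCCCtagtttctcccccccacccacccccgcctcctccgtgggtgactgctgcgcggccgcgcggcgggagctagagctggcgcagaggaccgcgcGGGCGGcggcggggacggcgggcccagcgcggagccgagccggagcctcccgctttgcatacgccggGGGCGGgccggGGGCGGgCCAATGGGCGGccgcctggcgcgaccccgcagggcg
TGGAAA was found in the Hoxd11 window alone, 1 time, and 18.6% of the 32851 windows of the same length in the table held it. TATAAA was found in the Hoxd13 window alone, as 2 overlapping copies on opposite strands, against 12.4% of all windows. CCAAT was found once each in the Hoxd13, Hoxd10 and Hoxa13 windows, against 33.8% of all windows. GGGCGG was found in the Hoxd13 window 7 times, 5 of them overlapping in a run, and in the Hoxa13 window 5 times, against 32.7% of all windows holding at least 1. Among the 24 windows of Hox genes, TGGAAA was in 6, TATAAA in 4, CCAAT in 14 and GGGCGG in 10. No motif was found in all 4 windows shown. GC content was 74.4% for Hoxd13, 44.8% for Hoxd11, 65.6% for Hoxd10 and 80% for Hoxa13. The median was 52.4% over all windows and 58.6% over the 24 Hox windows. A match is a description of letters, and the table does not say which start these cells use.

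In HoxA the differences were smaller. Apart from Hoxa13, the 9 HoxA genes differed by -0.57 to 0.71 in hypertonic and by -0.28 to 0.39 in isotonic medium, and for all 9 the arrays of the genotypes overlapped. Hoxa13, the paralogue of Hoxd13 and needed for digits, read 6.88 in knockout-labelled and 6.39 in wild-type cells in hypertonic medium. In isotonic medium it read 7.13 in knockout-labelled and 5.62 in wild-type cells, the latter close to the dim limit of 5.43. Each knockout-labelled array was above both wild-type arrays, by 0.49 at the nearest, and the difference was 0.49 in hypertonic and 1.51 in isotonic medium. Hottip, a noncoding RNA at the Hoxa13 end of the cluster, was dim on all arrays.

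Hoxa11, which acts in the forearm and uterus, read 8.36 in knockout-labelled and 8.22 in wild-type cells in hypertonic medium. In isotonic medium it read 7.75 in knockout-labelled and 7.71 in wild-type cells. Its HoxD paralogue Hoxd11, by contrast, had differences of 2.62 and 2.59 in the same arrays. Hoxa10, active in limb and uterus, read 6.98 in knockout-labelled and 7.55 in wild-type cells in hypertonic medium, and 6.99 in knockout-labelled and 6.70 in wild-type cells in isotonic medium. Hoxa9, a limb and blood gene, read 7.82 in knockout-labelled and 7.84 in wild-type cells in hypertonic medium, and 7.62 in knockout-labelled and 7.22 in wild-type cells in isotonic medium. Over the 10 HoxA genes the median difference was 0.08 in hypertonic and 0.05 in isotonic medium.

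In HoxB both genes above the dim limit, Hoxb9 and Hoxb6, read lower in knockout-labelled cells. Hoxb9, a gene of the thoracic region, read 5.78 in knockout-labelled and 6.54 in wild-type cells in hypertonic medium. In isotonic medium it read 5.12, a dim signal, in knockout-labelled and 6.84 in wild-type cells. The differences were -0.76 and -1.72 in hypertonic and isotonic medium; against the dim limit, the wild-type signal was at least 2.75-fold higher in isotonic medium. Hoxb6, a trunk gene, read 5.52 in knockout-labelled and 6.12 in wild-type cells in hypertonic medium, and 5.36 in knockout-labelled and 5.84 in wild-type cells in isotonic medium, differences of -0.61 and -0.48. Both genes read lower on each knockout-labelled array than on either wild-type array.

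The other 7 HoxB genes were dim throughout and differed in both directions. Hoxb1 and Hoxb3 were higher in knockout-labelled cells in hypertonic medium, by 0.36 and 0.21, and Hoxb13 in isotonic medium, by 0.39. Hoxb5 and Hoxb4 had differences of -0.12 and 0.00 in hypertonic and -0.88 and -0.69 in isotonic medium. The probe set shared by Hoxb8 and Hoxb7 read 3.81 in knockout-labelled and 4.40 in wild-type cells in hypertonic medium, and 3.89 in knockout-labelled and 4.83 in wild-type cells in isotonic medium, all dim. The HoxB median difference was -0.08 in hypertonic and -0.29 in isotonic medium. For HoxC it was 0.05 and -0.16, from dim signals alone, and the largest HoxC differences were 0.40 for Hoxc11 in hypertonic and -0.72 for Hoxc8 in isotonic medium.

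**Figure D3:**
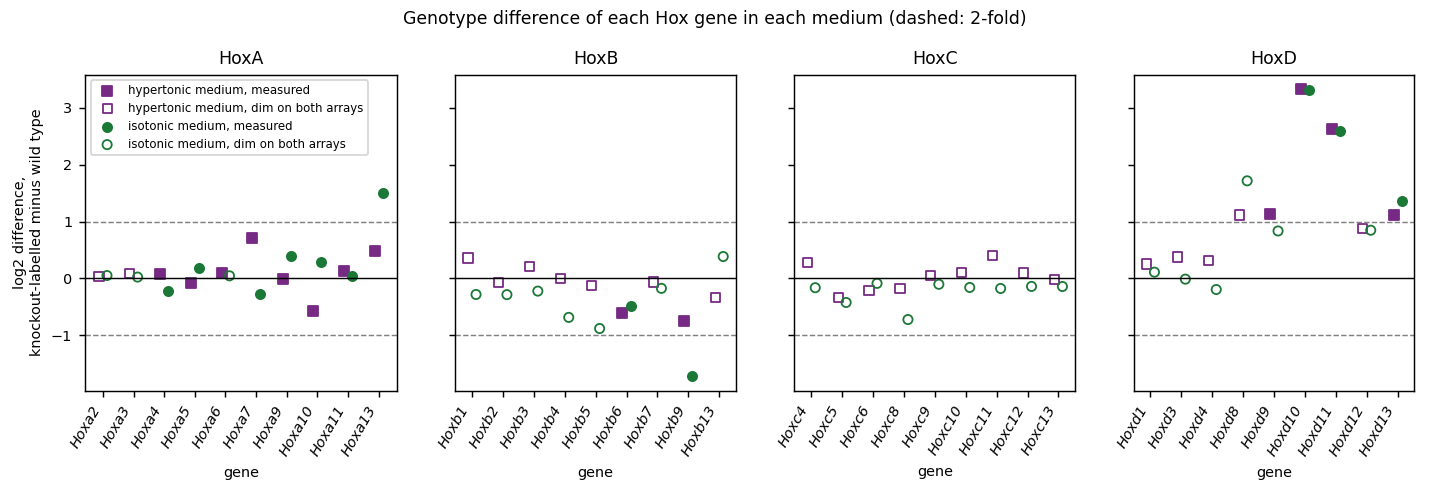
Log2 difference, knockout-labelled minus wild type, of each Hox gene in hypertonic (squares) and isotonic medium (circles), by cluster; open symbols had dim signals on both arrays. Dashed lines mark 2-fold. The points of Hoxd10 and Hoxd11 in both media lie between 2.59 and 3.33, and Hoxb9 in isotonic medium has the lowest, -1.72.

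Counted at 2-fold, 14 of the 37 Hox genes were measured in hypertonic medium. Of these 4 were higher in knockout-labelled cells (Hoxd9, Hoxd10, Hoxd11 and Hoxd13), beside 2.57% of all measured genes, and none was lower, beside 6.43%. In isotonic medium 12 were measured, and 4 were higher (Hoxd10, Hoxd11, Hoxd13 and Hoxa13), beside 1.59%, and Hoxb9 was lower, beside 1.28%. Hoxd10, Hoxd11 and Hoxd13 were at least 2-fold higher in both media, beside 0.649% of the 10023 genes measured in both, and no Hox gene was 2-fold lower in both, beside 0.948%. Hoxd10 in both media and Hoxd9 in hypertonic medium were measured through the knockout-labelled arrays alone and so had to read higher there, as Hoxb6 and Hoxb9 in isotonic medium had to read lower. Of the 14 Hox genes measured on any array, 5 had both knockout-labelled arrays above both wild-type arrays, beside 24.4% of all genes so measured. In 2 (Hoxb6 and Hoxb9) both were below, beside 21.5%, so non-overlap by itself was common.

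The genotype differences in the 2 media come from different arrays. Over the 9 HoxD genes they had the same sign for 7, and the exceptions, Hoxd3 and Hoxd4, were dim. Over the other 28 Hox genes, dim ones included, the sign was the same for 14. Of the 12 Hox genes measured in both media, 7 had the same sign, beside 61.9% of the 10023 genes measured in both. By paralogue number, the median difference of the 16 genes in groups 9 to 13 was 0.12 in hypertonic and 0.34 in isotonic medium, of the 10 genes in groups 5 to 8 -0.10 and -0.23, and of the 11 genes in groups 1 to 4 0.21 and -0.20. The clusters differed within the high numbers: among groups 9 to 13, the 5 HoxD genes differed by 0.88 to 3.33 in hypertonic medium, the 4 HoxA genes by -0.57 to 0.49, the 2 HoxB genes by -0.76 to -0.34 and the 5 HoxC genes, all dim, by -0.03 to 0.40. In isotonic medium the HoxD and HoxA genes overlapped, with 0.83 to 3.32 in HoxD and 0.03 to 1.51 in HoxA, where Hoxa13 was above Hoxd9, Hoxd12 and Hoxd13; HoxB had -1.72 and 0.39, and HoxC -0.18 to -0.10.

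The second comparison asked whether Hox genes responded to hypertonic medium. No Hox gene reached 2-fold between media in either genotype. In knockout-labelled cells 14 Hox genes were measured, with 0 at least 2-fold higher, beside 0.379% of all measured genes, and 0 at least 2-fold lower, beside 3.08%. In wild-type cells 12 were measured, with 0 higher, beside 1.01%, and 0 lower, beside 0.414%. Differences over all 37 ran from -0.61 to 0.69 in knockout-labelled and from -0.30 to 0.85 in wild-type cells.

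Hoxd10, Hoxd11 and Hoxd13, which were at least 2-fold higher in knockout-labelled cells in both media, differed less between media. Hoxd10 differed by 0.33 in knockout-labelled and 0.32 in wild-type cells, Hoxd11 by 0.09 and 0.06, and Hoxd13 by 0.02 and 0.27. For Hoxd10 and Hoxd11 the genotype difference was thus many times the difference between media. Hoxd9, Hoxd8 and Hoxd12, near or below the dim limit, differed by 0.53, -0.61 and -0.10 in knockout-labelled cells. In wild-type cells they differed by 0.22, -0.01 and -0.14.

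The 4 HoxA genes of groups 9 to 13 all read higher in hypertonic medium in wild-type cells, by 0.51 to 0.85, and their median was 0.69, beside -0.02 over all measured genes. Hoxa10 read 7.55 in hypertonic and 6.70 in isotonic wild-type cells, and Hoxa13 read 6.39 in hypertonic and 5.62 in isotonic wild-type cells. In knockout-labelled cells the same 4 genes differed by -0.25 to 0.61, with a median of 0.10, beside -0.09 over all measured genes. Hoxa11 read 8.36 in hypertonic and 7.75 in isotonic knockout-labelled cells, while Hoxa10 read 6.98 and 6.99 there. The lowest Hoxa13 signal was that of the wild-type isotonic array, and that array enters both the genotype difference in isotonic medium and the wild-type response.

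In knockout-labelled cells Hoxa7, a trunk gene, read 6.88 in hypertonic and 6.19 in isotonic medium, and Hoxb9 read 5.78 in hypertonic and 5.12 in isotonic medium. In wild-type cells both read slightly lower in hypertonic medium, with a difference of -0.30 each. The response of knockout-labelled minus that of wild-type cells was at least 2-fold negative for Hoxa13 alone among the 14 Hox genes measured, -1.02, beside 5.53% of all measured genes, and at least 2-fold positive for none, beside 1.41%. Hoxa7 at 0.99 and Hoxb9 at 0.97 lay just inside 2-fold, and centring the differences brought both past it and Hoxa13 back inside. After quantile normalization Hoxa7 alone passed, in the positive direction, so this count depends on the scaling.

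Most Hox genes that were dim on all arrays read higher on the knockout-labelled hypertonic array than on the isotonic one, 20 of 23, with a median of 0.35. This was shared with dim genes in general: of 9396 genes dim on all arrays, 69.9% read higher there, with a median of 0.13. In wild-type cells 15 of the 23 read higher in hypertonic medium, with a median of 0.05, beside 44.6% and -0.03 over the dim genes. All 9 HoxB and all 9 HoxC genes read higher in hypertonic medium in knockout-labelled cells, 16 of these 18 at signals that were dim on every array, and the part of background in these values was not tested.

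**Figure D4:**
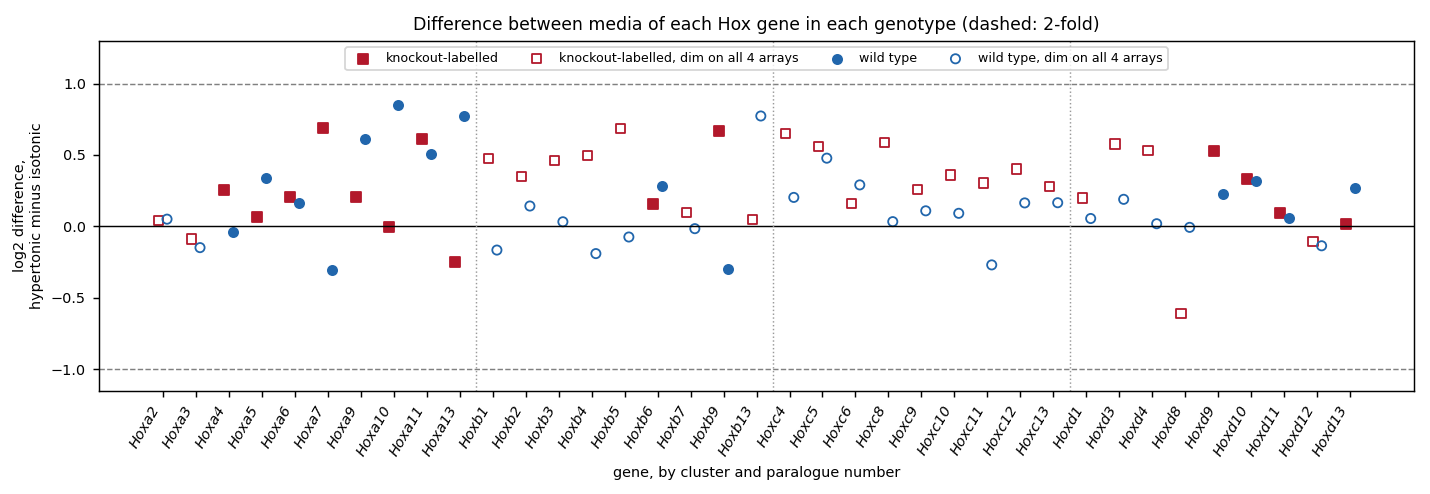
Log2 difference, hypertonic minus isotonic, of each Hox gene in knockout-labelled (squares) and wild-type cells (circles), by cluster and paralogue number; open symbols were dim on all 4 arrays. Dashed lines mark 2-fold, which no point reaches. Wild-type Hoxa10 (0.85) has the highest difference, and knockout-labelled Hoxd8 (-0.61), a dim gene, the lowest.

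Genes that work with or act on Hox genes were taken as lists. The TALE class cofactors, Meis, Pbx and Pknox proteins that bind DNA with Hox proteins, had 8 genes on the array, of which 6 were above the dim limit on all arrays. Their median genotype difference was -0.18 in hypertonic (7 measured) and -0.06 in isotonic medium (8 measured). Pknox2 alone passed 2-fold, with a difference of -1.22 in isotonic medium, beside 1.28% of all measured genes lower there. It read 4.60, a dim signal, in knockout-labelled and 5.82 in wild-type cells. Since it was above the limit on that wild-type array alone, it had to read lower in knockout-labelled cells. All 21 chromatin regulators, mainly Polycomb proteins that keep Hox genes silent and Trithorax proteins that keep them active, were above the limit on every array. Their medians were 0.09 in hypertonic and -0.03 in isotonic medium. Dot1l alone, a histone methyltransferase gene, passed 2-fold, higher by 1.02 in hypertonic medium, beside 2.57% of all measured genes higher there. With 1 gene passing, this is not read as a result about the list. Ezh2, the Polycomb methyltransferase gene, read 9.71 in knockout-labelled and 9.64 in wild-type cells in hypertonic medium, and 9.56 in knockout-labelled and 9.60 in wild-type cells in isotonic medium.

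Limb and position transcription factor genes outside the clusters included some in each direction. Of 33 measured in hypertonic medium, 3 were at least 2-fold higher (Sall1, Irx3 and Foxc2) and 6 lower (Tbx18, Prrx2, Msx2, Emx2, Meox2 and Foxf2) in knockout-labelled cells, beside 2.57% and 6.43% of all measured genes. Of 33 measured in isotonic medium, 4 were higher (Msx1, Sall1, Irx3 and Foxc1) and 3 lower (Msx2, Meox2 and Foxf2), beside 1.59% and 1.28%. The medians were -0.05 in hypertonic and 0.13 in isotonic medium. Meox2, a homeobox gene of limb muscle, had the largest difference of the list in hypertonic medium, -3.89, and -2.35 in isotonic medium, from dim knockout-labelled signals. Sall1, a zinc finger gene of limb and kidney, was higher by 2.48 and 1.92 in hypertonic and isotonic medium, from dim wild-type signals, and Irx3 by 1.80 and 1.16. Msx2, a limb bud gene, was lower, with differences of -2.05 and -1.86, and so was Foxf2, with -3.23 and -2.82 from dim knockout-labelled signals. Meox2 and Foxf2 were measured through wild-type arrays alone and so had to read lower in knockout-labelled cells, as Sall1 had to read higher. Tbx5, the forelimb T-box gene, read 7.34 in knockout-labelled and 7.72 in wild-type cells in hypertonic medium, and 7.49 in knockout-labelled and 6.95 in wild-type cells in isotonic medium. Tbx4 and Pitx1, hindlimb genes, were dim on all 4 arrays. These 3 genes and Ezh2 were named after their values were seen.

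Among 13 limb bud signals, 9 were measured in each medium. None was 2-fold higher and 4 were lower in hypertonic medium, beside 2.57% and 6.43% of all measured genes, and 1 was higher and 3 lower in isotonic medium, beside 1.59% and 1.28%. Grem1, a BMP antagonist of the limb bud, read 5.67 in knockout-labelled and 8.10 in wild-type cells in hypertonic medium, and 5.86 in knockout-labelled and 7.41 in wild-type cells in isotonic medium. Fgf10 and Wnt5a, the other genes lower in both media, were dim on both knockout-labelled arrays and so had to read lower there. Ptch1, the hedgehog receptor gene, was lower in hypertonic medium, with a difference of -1.50. Bmp2, a BMP ligand gene, was higher in isotonic medium by 1.25, a direction fixed by its dim wild-type signal. In the retinoic acid pathway, which sets Hox boundaries in the embryo, 11 genes were measured in each medium: 1 was higher and 4 lower in hypertonic medium, and none was higher and 2 lower in isotonic medium, read against the same shares. Aldh1a1, a retinoic acid synthesis gene, and Cyp26a1, which degrades retinoic acid, were the genes lower in both. Both were dim on the knockout-labelled arrays and so had to read lower there. Rarb, a retinoic acid receptor gene, and Dhrs3 were lower in hypertonic medium, with differences of -1.49 and -1.18, against 0.95 and 0.37 in isotonic medium. Dhrs3 was dim on the knockout-labelled hypertonic and wild-type isotonic arrays, so both its directions were fixed. Rdh10 was higher in hypertonic medium, by 1.36. Of the 6 ParaHox and Cdx genes 5 were dim on all arrays, and none passed 2-fold. Of 32 listed genes inside or beside the clusters 23 were on the array and 11 were measured, and none passed 2-fold in either medium. Atp5g2, near Hoxc13 in the RefSeq gene order but not on that list, did: it read 9.85 in knockout-labelled and 11.08 in wild-type cells in hypertonic medium, a difference of -1.23, and had a difference of -0.08 in isotonic medium. It was named after its values were seen.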

How the data were processed

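The deposited table holds log2 signal, 1 value per probe set and array, made by the authors; the log2 scale was read from the values. MAS5 is named, without a version, in the submitters' processing notes. Background correction, scaling between arrays and genome build were not given in the sources used here. Affymetrix Mouse Gene 1.0 ST arrays were hybridised with cRNA amplified from total RNA by poly(T) priming, per the labels' protocols. Precision is limited by the number of arrays, 1 per group.

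Values were used as deposited. Of 35557 probe sets, 21789 had 1 gene symbol in the platform annotation and 1621 had several; the latter and the unnamed were left out. Symbols were updated by Entrez identifier, and all 37 Hox symbols were unchanged. A gene with several probe sets was represented by the brightest on average. Differences are between 2 arrays, knockout-labelled minus wild type or hypertonic minus isotonic, and were counted at 2-fold among genes above the dim limit on at least 1 array compared. No p-value was computed. The counting step was tested on simulated data.

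The members and lists were chosen with earlier results of these data known. Every Hox gene was accounted for; from the lists, genes past 2-fold or with the 4 largest differences could be named, with exceptions stated. Alternatives were quantile and cyclic loess normalization, centred differences, counting at 1.5-fold, averaging the probe sets of a gene, no dim limit, and a stricter one set at the 75th percentile. Work was done in R 4.3.3 (limma 3.58.1) and Python 3.11.15 (matplotlib 3.10.9, numpy 2.4.6, pandas 2.3.3).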

Additional observations from a re-analysis of the deposited data

Results flagged for a closer look

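Hoxa13, Hoxa7 and Hoxb9 differed between media in opposite directions in the genotypes, each by more than the SD between probe sets of a gene in the deposited values. For Hoxa13 in knockout-labelled cells this did not hold after quantile normalization, where its response was -0.09, or after centring, where it was -0.16. Each direction rests on 1 array per group, and the difference between genotypes was not tested. Hoxa13 had a response of -0.25 in knockout-labelled and 0.77 in wild-type cells, and the difference of the responses was -1.02. Hoxa7 had 0.69 in knockout-labelled and -0.30 in wild-type cells, a difference of 0.99. Hoxb9 had 0.67 in knockout-labelled and -0.30 in wild-type cells, a difference of 0.97.

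Seen as genotype differences, Hoxa10 was lower in knockout-labelled cells in hypertonic medium (-0.57) and higher in isotonic medium (0.29), and the first minus the second was -0.86. Hoxa7 was higher in hypertonic medium (0.71) and lower in isotonic medium (-0.28), the same 0.99 as above. These were not tested either.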

How the results depend on the processing

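Quantile and cyclic loess normalization moved none of the 148 Hox gene differences (37 genes in 4 comparisons between arrays) by more than the SD between probe sets. None of those past 2-fold changed sign. Averaging the probe sets of a gene could move no difference, since each Hox gene had 1 probe set. Centring could not move one beyond the SD either. It subtracts 1 median per comparison, the largest being -0.09 in the knockout-labelled response, against SDs of 0.15 to 0.21. Counts past 2-fold moved more. With the dim limit raised to the 75th percentile, 3 Hox genes passed in the isotonic genotype comparison (Hoxd10, Hoxd11 and Hoxd13, against 5) and 0 in the difference of responses (against 1). With a limit of 1.5-fold, 7 passed in the hypertonic genotype comparison (against 4), 5 higher and 2 lower. Of the 10374 genes measured there, 905 were higher and 1562 lower at that limit. In the knockout-labelled response 3 passed, all higher (Hoxa7, Hoxa11 and Hoxb9), beside 440 higher and 1237 lower of 10277 genes. In the wild-type response 3 passed, all higher (Hoxa9, Hoxa10 and Hoxa13), beside 418 higher and 334 lower of 10134. In the difference of responses 4 passed, 2 higher and 2 lower, beside 818 higher and 1624 lower of 10542. At 2-fold, the count in the difference of responses was 1 after quantile normalization, with Hoxa7 positive and Hoxa13 no longer past the limit. It was 2 after cyclic loess (Hoxa7 and Hoxa13) and 2 after centring (Hoxa7 and Hoxb9). Hox genes whose genotypes did not overlap numbered 13 with no dim limit and 3 with a limit at the 75th percentile, against 7. This count was added after the values were seen, and the share over all genes at these alternative limits is not given here. No limit on dim genes leaves the medians over all members as they are.

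Medians depend on which members enter. With measured members only, an alternative chosen after seeing the data, the median of HoxD was 1.88 in hypertonic and 2.59 in isotonic medium, of HoxB -0.68 and -1.10, and of groups 9 to 13 0.49 and 0.88. For the wild-type response it was 0.42 for HoxA and 0.51 for groups 9 to 13, and for the knockout-labelled response 0.25 for groups 1 to 4, from 1 gene. With the limit raised to the 75th percentile, the HoxD median was 2.62 in hypertonic and 2.59 in isotonic medium, and that of groups 9 to 13 was 1.11 and 1.98. For the knockout-labelled response HoxA then had 0.41, and for the wild-type response HoxA had 0.56, HoxD 0.27 and groups 9 to 13 0.51. By construction fewer and brighter genes enter, and some measured members entered the genotype comparisons through 1 genotype alone. Hoxd10 in both media and Hoxd9 in hypertonic medium had to read higher in knockout-labelled cells. In isotonic medium both measured HoxB genes, Hoxb6 and Hoxb9, had to read lower there, so the sign of -1.10 was fixed in advance. Over all genes, quantile normalization moved the share of higher genes among those past 2-fold in the knockout-labelled response to 22.7%, from 10.96% as deposited, and centring moved it to 22.1%; no Hox gene passed 2-fold there. No paired analysis was possible because each group has 1 array. Dim signals limit 23 of the 37 Hox genes.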
